A study of Mus musculus with 13 samples.

Results

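The 31 genes described here encode enzymes of cholesterol synthesis, the proteins that control them, and proteins of cholesterol efflux, storage and turnover, read in the brains of mice with a transient stroke or sham surgery and with microglia depleted or present. They were chosen by gene symbol, and all 31 were found in each of the 4 deposited tables, among 21056 genes that the tables share. All 31 also passed the filter on low counts, which kept 16940 genes. By role they comprise 7 enzymes of the mevalonate steps, 11 enzymes that turn farnesyl units into squalene and sterols, 5 regulators and 8 genes of efflux, storage and turnover. No lipoprotein receptor is among them, so uptake is described from a separate list.

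The brain makes nearly all of its cholesterol itself, because the blood-brain barrier keeps lipoproteins of the blood out, and most of it lies in myelin. Synthesis is switched on as a block by the transcription factor SREBP2, which leaves the endoplasmic reticulum with its escort SCAP when sterols are low and is held back by the INSIG proteins when they are high. Oxysterols and the intermediate desmosterol activate the LXR receptors, which raise the efflux pumps ABCA1 and ABCG1. Astrocytes supply neurons with sterol on lipoprotein particles, and microglia clear the sterol of damaged myelin.

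The mice were CX3CR1creER/+ with Rosa26 iDTR/+, that is, with a Cre recombinase that tamoxifen switches on, expressed from the Cx3cr1 locus in microglia and also in other mononuclear phagocytes, and a diphtheria toxin receptor that needs Cre. All received 2 doses of tamoxifen at 7 to 8 weeks of age. The 4 groups were tMCAO_MG_DE (toxin, then occlusion of the middle cerebral artery; n = 2), tMCAO_MG_CON (saline, then occlusion; n = 4), sham_MG_DE (toxin, then sham surgery; n = 4) and sham_MG_CON (saline, then sham surgery; n = 3). The toxin was given at 50 ng per g for 3 days, 30 days after tamoxifen, and the artery was blocked for 60 min in male mice. The labels also give 6 to 8 weeks as the age at surgery, which cannot be joined with the tamoxifen schedule. The Rosa locus is numbered differently in some labels and was read as the same genotype. Neither the brain part nor the time of sampling is given in the sources used here.

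Libraries held 16239763 to 22080367 counts. The microglial receptor gene Csf1r lay at 6.08 to 8.51 CPM (counts scaled to a common library size) in tMCAO_MG_DE, 76.4 to 97.4 in tMCAO_MG_CON, 6.10 to 16 in sham_MG_DE and 92 to 93.4 in sham_MG_CON. Replicate 4 of tMCAO_MG_CON is labelled sham surgery in its treatment entry, but its Gfap level, a marker of astrocyte reaction, was 924 CPM, among the occluded libraries. It stayed with the group its title names. Replicate 3 of sham_MG_DE and replicate 2 of sham_MG_CON stood apart by a summed level of 6 neutrophil genes of 27.4 and 27.1 CPM, against 0.858 to 3.00 CPM in the other sham libraries, so counts are also given without both. In occluded brains replicate 1 of tMCAO_MG_DE had 12.7 CPM of these genes, against 1.07 to 3.76 CPM in the other libraries, and its sum of 10 astrocyte genes was 2342 CPM, beside 3906 CPM in replicate 2. Replicate 2 of sham_MG_DE was low in the same astrocyte genes, at 2246 CPM, against 3976 to 4782 CPM in the rest of its group. Each library has its own animal tag in its title, and p-values measure the spread between these libraries.

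Level per transcript length was read from the deposited FPKM values in sham_MG_CON. Cyp46a1, the neuronal enzyme that turns cholesterol into 24S-hydroxycholesterol for export from the brain, was highest at 103 ± 1.68 FPKM (SD, n = 3). Hmgcs1, which makes the precursor of mevalonate, followed at 67.8 ± 13.3 FPKM, then Srebf2, the gene of SREBP2, at 44 ± 6.02 and Fdft1, squalene synthase, at 26.2 ± 1.15 FPKM. Each of these 4 lay above the next gene in every library. Insig1 at 17 FPKM overlapped with Abcg1 at 16.7 FPKM, and Abcg1 with Sc5d at 15.5 FPKM. From Scap at 12.2 FPKM downward neighbours in the order overlapped, except Soat1 above Tm7sf2 and Lss above Nr1h3. Lss, the cyclase that forms lanosterol, was next to last at 1.95 ± 0.223 FPKM. Nr1h3, the gene of LXR alpha, was last at 0.367 ± 0.0945 FPKM, below every other member. The order rests on the transcript lengths behind the deposited FPKM, and their effect on it was not tested. By mean CPM in sham_MG_CON, which ignores length, Lss at 37.4 lay above Nsdhl at 19.4, although Nsdhl had 6.21 FPKM. For Lss a low place in this order is therefore not a low count, while Nr1h3 was low in both, at a mean of 1.97 CPM.

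**Figure D1:**
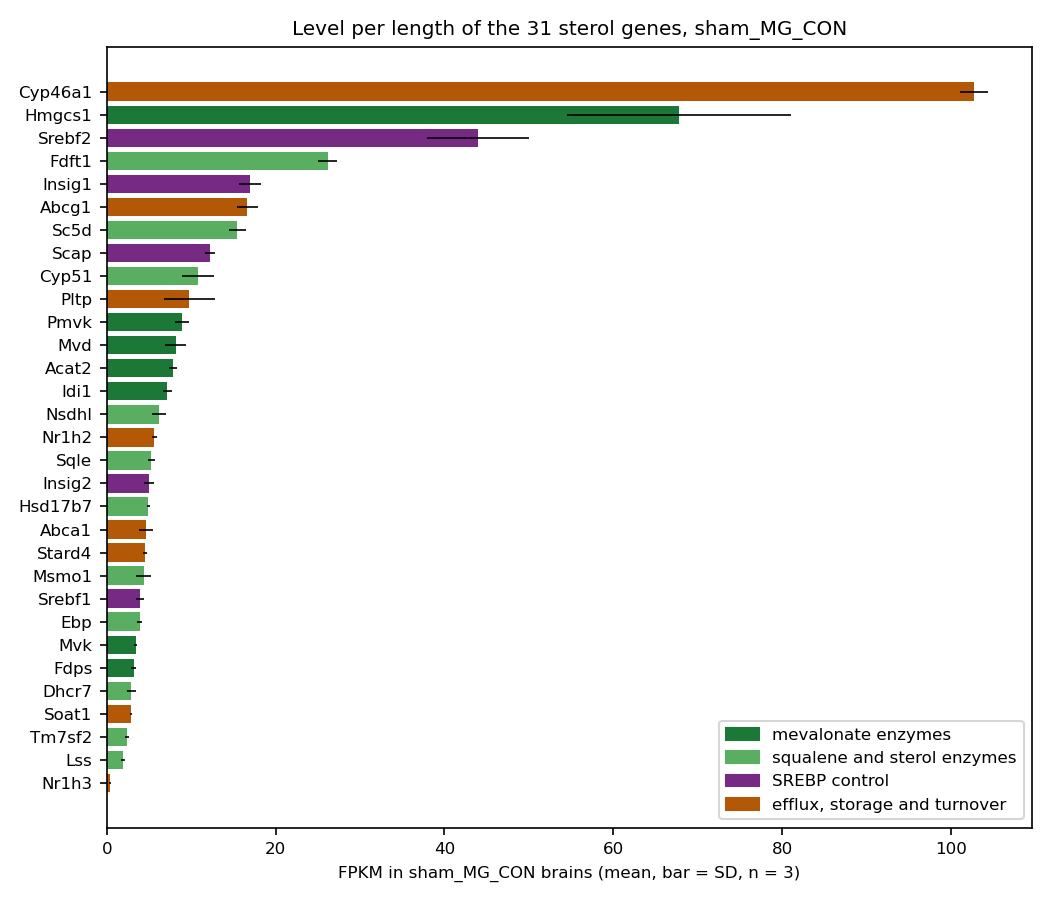
Mean FPKM of the 31 genes in the 3 sham_MG_CON libraries, with bars for the SD and colours for the role of each gene. Cyp46a1, Hmgcs1, Srebf2 and Fdft1 stand above the rest, and Nr1h3 lies near 0.

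With microglia depleted, 5 of the 18 synthesis enzymes were called lower and 1 higher in occluded brains, and 7 were called lower and 0 higher in sham brains (edgeR). In tMCAO_MG_DE against tMCAO_MG_CON, 7 of the 31 genes were lower, beside 9.26% of all genes tested that were called lower, and 3 were higher, beside 9.36% called higher. In sham_MG_DE against sham_MG_CON, 10 were lower, beside 4.49% of all genes, and 1 was higher, beside 6.85%. The 3 higher members are a share near that of all genes. A call is an edgeR adjusted p under 0.05 over 16940 genes. Among the 18 synthesis enzymes, 16 had a log2 fold change below 0 in each comparison, with medians of -0.42 in occluded and -0.38 in sham brains, where the medians of all genes tested were -0.01 and 0.00. The enzymes vary together within libraries, with tMCAO_MG_DE replicate 1 the highest of its group in 17 of the 18, and are not independent observations. The summed level of the 18 enzymes was 616 to 721 CPM in tMCAO_MG_DE and 729 to 1066 CPM in tMCAO_MG_CON. It was 537 to 688 CPM in sham_MG_DE and 714 to 867 CPM in sham_MG_CON, so neither pair of groups overlapped.

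The same libraries differed in cell type markers. Summed levels of 10 microglial genes were 56.6 to 67.1 CPM in tMCAO_MG_DE and 461 to 564 CPM in tMCAO_MG_CON, and 41.7 to 95.3 CPM in sham_MG_DE against 385 to 408.0 CPM in sham_MG_CON. All 10 were called lower in both comparisons, and none was at 0 in any library. Of 10 astrocyte genes, 2 were lower in occluded and none was called in sham brains by edgeR or DESeq2. In sham brains 3 had an unadjusted p under 0.05 (edgeR), as did 4902 of the 16940 genes tested. Of 10 oligodendrocyte and myelin genes, 2 were lower in occluded and 3 in sham brains, and of 8 genes of oligodendrocyte precursors 3 and 2 were lower. Astrocyte genes summed to 2342 to 3906 CPM in tMCAO_MG_DE and 3914 to 4667 CPM in tMCAO_MG_CON, and to 2246 to 4782 CPM in sham_MG_DE and 5033 to 5102 CPM in sham_MG_CON, with no overlap in either pair. Oligodendrocyte genes summed to 1805 to 1915 CPM in tMCAO_MG_DE and 1712 to 2571 CPM in tMCAO_MG_CON, which overlapped, and to 1801 to 2342 CPM in sham_MG_DE and 2315 to 2850 CPM in sham_MG_CON, which overlapped at the edge. Precursor genes summed to 203 to 226 CPM in tMCAO_MG_DE and 222 to 279 CPM in tMCAO_MG_CON, and to 188 to 211 CPM in sham_MG_DE and 273 to 293 CPM in sham_MG_CON. Border macrophage genes were higher with depletion, 3 of 6 in occluded and 6 of 6 in sham brains, and summed to 35.6 to 46.5 CPM in tMCAO_MG_DE against 13.2 to 23.8 CPM in tMCAO_MG_CON, and to 29.9 to 40.9 CPM in sham_MG_DE against 6.22 to 8.14 CPM in sham_MG_CON. Of 7 genes of monocytes and foam macrophages, 4 were lower in occluded brains, with sums of 60.1 to 78.6 CPM in tMCAO_MG_DE and 132.5 to 317.5 CPM in tMCAO_MG_CON, and 2 were higher in sham brains, with 18.5 to 22.9 CPM in sham_MG_DE and 15.7 to 19.3 CPM in sham_MG_CON. Of 8 neuronal genes, 2 were lower and 1 higher in occluded brains and 2 were lower in sham brains. Neuronal genes summed to 7016 to 7151 CPM in tMCAO_MG_DE and 7199 to 7924 CPM in tMCAO_MG_CON, and to 7719 to 9123 CPM in sham_MG_DE and 8982 to 9364 CPM in sham_MG_CON. Of the macrophage and monocyte genes, Folr2 was at 0 in 1 library and Ccr2 in 3, all given saline. The mitochondrial share of each library was 7.84 to 8.74% with toxin and 9.03 to 9.86% with saline. In whole tissue, fewer cells of a type and less RNA per cell cannot be told apart, and the part of these cell types and of the mitochondrial share in the sterol gene changes was not tested.

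**Figure D2:**
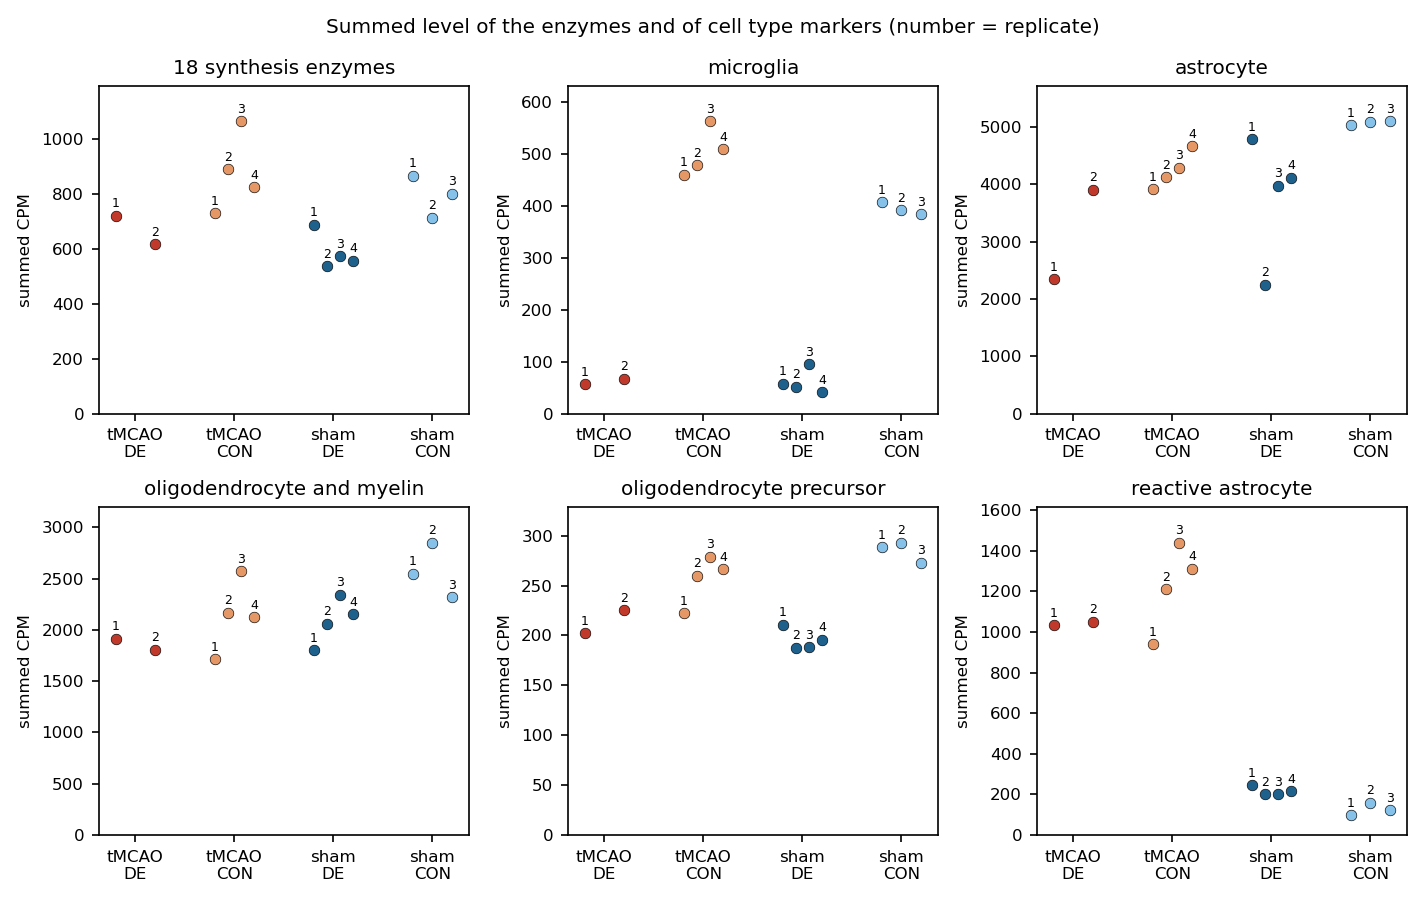
Summed CPM of the 18 synthesis enzymes and of 5 marker lists in each library, with the replicate number above each point. The enzyme sum lies at 616 to 721 CPM in tMCAO_MG_DE, below the 729 to 1066 CPM of tMCAO_MG_CON, and at 537 to 688 CPM in sham_MG_DE, below the 714 to 867 CPM of sham_MG_CON.

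Promoter windows of 6 genes are shown because they belong to members called lower with depletion and to an efflux pump called higher. They are 250 bases before to 50 bases after the gene start, from RefSeq on build GRCm38.p6, in the direction of transcription. Capitals mark the sterol regulatory element TCACNCCAC, to which SREBP binds, and the CCAAT box, CCAAT or ATTGG by strand. No marked motifs overlap.
Hmgcs1, chr13:119690101-119690400, plus strand: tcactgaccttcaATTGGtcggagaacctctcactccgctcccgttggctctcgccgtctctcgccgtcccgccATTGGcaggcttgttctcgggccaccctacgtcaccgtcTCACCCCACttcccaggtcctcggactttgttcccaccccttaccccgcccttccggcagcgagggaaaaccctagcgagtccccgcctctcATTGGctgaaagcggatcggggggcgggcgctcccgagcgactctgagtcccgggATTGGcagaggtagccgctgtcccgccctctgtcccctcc
Msmo1, chr8:64733529-64733828, minus strand: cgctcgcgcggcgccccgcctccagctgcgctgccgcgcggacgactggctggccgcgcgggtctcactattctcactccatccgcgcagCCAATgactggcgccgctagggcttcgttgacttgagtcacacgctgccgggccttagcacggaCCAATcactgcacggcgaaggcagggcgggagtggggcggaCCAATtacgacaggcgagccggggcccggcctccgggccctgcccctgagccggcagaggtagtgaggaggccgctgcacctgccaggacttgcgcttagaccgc
Nsdhl, chrX:72918271-72918570, plus strand: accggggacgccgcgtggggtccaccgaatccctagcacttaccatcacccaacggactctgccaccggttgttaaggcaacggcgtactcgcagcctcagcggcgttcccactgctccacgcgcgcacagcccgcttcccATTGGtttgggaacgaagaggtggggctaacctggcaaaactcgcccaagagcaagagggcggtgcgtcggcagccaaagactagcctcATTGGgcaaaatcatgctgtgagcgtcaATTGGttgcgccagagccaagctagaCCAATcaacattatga
Sc5d, chr9:42264251-42264550, minus strand: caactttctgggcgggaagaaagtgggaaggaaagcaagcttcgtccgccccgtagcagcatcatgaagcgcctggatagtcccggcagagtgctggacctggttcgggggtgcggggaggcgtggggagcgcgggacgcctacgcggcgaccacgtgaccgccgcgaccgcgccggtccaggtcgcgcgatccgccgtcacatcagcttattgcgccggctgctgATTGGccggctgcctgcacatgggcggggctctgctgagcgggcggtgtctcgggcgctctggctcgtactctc
Insig1, chr5:28071162-28071461, plus strand: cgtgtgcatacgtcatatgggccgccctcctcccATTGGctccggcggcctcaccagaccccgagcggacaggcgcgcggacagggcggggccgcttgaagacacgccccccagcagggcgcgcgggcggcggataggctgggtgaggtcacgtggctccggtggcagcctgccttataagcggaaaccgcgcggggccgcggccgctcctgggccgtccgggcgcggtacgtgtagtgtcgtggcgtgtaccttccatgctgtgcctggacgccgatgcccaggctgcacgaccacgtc
Abca1, chr4:53159846-53160145, minus strand: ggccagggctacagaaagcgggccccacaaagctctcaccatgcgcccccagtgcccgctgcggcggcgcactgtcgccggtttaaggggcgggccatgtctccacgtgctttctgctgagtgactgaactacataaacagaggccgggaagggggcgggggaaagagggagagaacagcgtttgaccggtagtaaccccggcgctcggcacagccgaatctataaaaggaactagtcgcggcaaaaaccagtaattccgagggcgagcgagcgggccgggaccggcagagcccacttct
The Hmgcs1 window holds 1 sterol element, at -137 from the start on the plus strand, and 4 CCAAT boxes. Msmo1 holds 3 CCAAT boxes, Nsdhl holds 4, Sc5d and Insig1 hold 1 each, and Abca1 holds none.

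Of the 31 genes, 26 had a window in the RefSeq table, and those without were Fdps, Fdft1, Sqle, Stard4 and Abcg1. The sterol element occurred in 1 of the 26, against 1.44% of 27025 genes, both strands read. A CCAAT box was present in 21 of the 26 and in 14 of the 15 enzymes with a window, against 41.06% of all genes. The GC box GGGCGG, letters bound by SP1, was present in 23 of the 26 and in 14 of the 15 enzymes, against 38.2% of all genes. The LXR element, read as an exact direct repeat of AGGTCA with a spacing of 4, occurred in none of the 26. It occurred in only 4 of 27025 genes (0.01%), so its absence here cannot tell whether the members have LXR sites. These are matches of letters and not measured sites.

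The mevalonate enzymes come first in the pathway, and 2 of 7 were called lower with depletion in each setting. Hmgcs1 had 159.6 and 129.6 CPM in tMCAO_MG_DE, against 197, 233, 300.04 and 211 CPM in tMCAO_MG_CON. It had 183, 128, 134 and 132 CPM in sham_MG_DE, against 271, 180.2 and 232 CPM in sham_MG_CON. The occluded groups did not overlap, while replicate 1 of sham_MG_DE lay just inside the sham_MG_CON range. Hmgcs1 fell with depletion in both settings, with log2 fold changes of -0.70 ± 0.20 in occluded (edgeR adjusted p = 0.0293) and -0.66 ± 0.17 in sham brains (edgeR adjusted p = 0.0285). A noncoding gene on the opposite strand overlaps 12.1% of its exonic bases, and whether counting used strand is not given in the sources used here.

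Mvd, the decarboxylase that makes isopentenyl pyrophosphate, had 17.5 and 13.7 CPM in tMCAO_MG_DE and 14.4, 15.9, 20.5 and 15.8 CPM in tMCAO_MG_CON. Its level was 11, 10.001, 9.75 and 10.7 CPM in sham_MG_DE and 15.3, 12.4 and 17.1 CPM in sham_MG_CON. All sham_MG_DE libraries were below every library of the other groups. The depletion change of Mvd was -0.53 ± 0.14 in sham brains (edgeR adjusted p = 0.0324) and -0.09 ± 0.16 in occluded brains (edgeR adjusted p = 0.716). The difference between these changes was 0.44 ± 0.21 (edgeR adjusted p = 0.533) and did not pass the threshold.

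Fdps, farnesyl pyrophosphate synthase, had 15.5 and 15.1 CPM in tMCAO_MG_DE against 18.9, 23.9, 35.3 and 23.1 CPM in tMCAO_MG_CON. Its sham values were 19.9, 17, 11.3 and 15.6 CPM in sham_MG_DE and 19.6, 19.7 and 17.2 CPM in sham_MG_CON. Fdps fell in occluded brains (-0.73 ± 0.23, edgeR adjusted p = 0.0451), and replicate 3 of tMCAO_MG_CON was its highest library. In sham brains the groups overlapped and the change was -0.24 ± 0.20 (edgeR adjusted p = 0.465). Counts of Fdps are uncertain, since 26.7% of its exonic bases overlap a gene on the same strand and 26.2% of its 50-base stretches occur in another gene.

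Idi1, the isomerase that follows Mvd, had 26.7 and 19.6 CPM in tMCAO_MG_DE against 31.5, 46.1, 57.1 and 36.1 CPM in tMCAO_MG_CON. It had 27.5, 18.4, 19.1 and 7.64 CPM in sham_MG_DE against 38.1, 32.5 and 36 CPM in sham_MG_CON. No values overlapped within either pair, yet the spread was wide and neither change passed, at -0.88 ± 0.36 (edgeR adjusted p = 0.101) and -0.97 ± 0.31 (edgeR adjusted p = 0.0578). Of its 50-base stretches, 17.7% occur in the gene Gm13502. Mvk, mevalonate kinase, ran from 11.3 to 20.4 CPM over all libraries, Pmvk, the kinase after it, from 24.1 to 32.1 CPM, and Acat2, the cytosolic thiolase that opens the pathway, from 26 to 39.9 CPM. None of these 3 was called in any comparison. Acat2 shares 39.1% of its 50-base stretches with Acat3, so its counts are uncertain.

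Among the 11 squalene and sterol enzymes, 3 were called lower and 1 higher with depletion in occluded brains, and 5 were called lower in sham brains. Sqle, squalene epoxidase and a rate-limiting step, had 33.4 and 30.9 CPM in tMCAO_MG_DE against 43.7, 54.6, 80.6 and 54.6 CPM in tMCAO_MG_CON. It had 39, 23, 27.1 and 28 CPM in sham_MG_DE against 50.4, 42.7 and 47.7 CPM in sham_MG_CON. No depleted library reached its control group. Sqle fell by 0.86 ± 0.23 on the log2 scale in occluded brains (edgeR adjusted p = 0.0211) and by 0.68 ± 0.19 in sham brains (edgeR adjusted p = 0.0386).

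Cyp51, the lanosterol demethylase, had 49.1 and 41.6 CPM in tMCAO_MG_DE and 51.5, 59.1, 84.2 and 58.8 CPM in tMCAO_MG_CON. In sham brains it had 50.4, 35.1, 33.6 and 34.5 CPM in sham_MG_DE and 73.2, 53.7 and 54.9 CPM in sham_MG_CON. Both pairs of groups were separate, but only the sham change passed, at -0.66 ± 0.18 (edgeR adjusted p = 0.0358), with -0.48 ± 0.21 in occluded brains (edgeR adjusted p = 0.124). Msmo1, an oxidase that acts on the methyl groups of the sterol ring after Cyp51, had 27.4 and 25.9 CPM in tMCAO_MG_DE and 31.1, 49.97, 58.8 and 45.9 CPM in tMCAO_MG_CON. Its sham values were 35.8, 20.4, 21.1 and 20.4 CPM in sham_MG_DE and 47.9, 33.4 and 52.5 CPM in sham_MG_CON, with replicate 1 of sham_MG_DE inside the control range. Msmo1 fell in sham brains (-0.87 ± 0.23, edgeR adjusted p = 0.0323), and its occluded change was -0.80 ± 0.28 (edgeR adjusted p = 0.0578). The difference between the depletion changes was 0.18 ± 0.28 for Cyp51 and 0.07 ± 0.36 for Msmo1, with edgeR adjusted p of 0.88 and 0.972.

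Nsdhl, the dehydrogenase that works with Msmo1, had 13.5 and 12.9 CPM in tMCAO_MG_DE against 18.6, 20.3, 24 and 18.9 CPM in tMCAO_MG_CON, and 15, 9.96, 13.3 and 12.4 CPM in sham_MG_DE against 21.8, 16.5 and 19.99 CPM in sham_MG_CON. Sc5d, the sterol C5 desaturase near the end of the pathway, had 43.6 and 38.9 CPM in tMCAO_MG_DE against 49.4, 57.5, 65 and 58.4 CPM in tMCAO_MG_CON, and 44.4, 34, 35.7 and 36.9 CPM in sham_MG_DE against 58.5, 52.5 and 52.1 CPM in sham_MG_CON. For both genes every depleted library lay below every control library of the same surgery. Nsdhl fell by 0.63 ± 0.16 in occluded (edgeR adjusted p = 0.0199) and by 0.62 ± 0.14 in sham brains (edgeR adjusted p = 0.018), on the log2 scale. Sc5d fell by 0.48 ± 0.12 in occluded (edgeR adjusted p = 0.019) and by 0.53 ± 0.11 in sham brains (edgeR adjusted p = 0.0114).

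Lss was the 1 enzyme called higher with depletion. Its level was 62.8 and 48.1 CPM in tMCAO_MG_DE, above the 42.9, 38.5, 38.9 and 35.9 CPM of tMCAO_MG_CON, and 37.8, 44.6, 36.6 and 43.4 CPM in sham_MG_DE beside 37.1, 41.4 and 33.7 CPM in sham_MG_CON. Lss rose with depletion in occluded brains by 0.51 ± 0.12 on the log2 scale (edgeR adjusted p = 0.0153), and the sham change was 0.12 ± 0.11 (edgeR adjusted p = 0.509). The difference between the depletion changes was 0.39 ± 0.17 (edgeR adjusted p = 0.491), the member with the smallest unadjusted p there. Fdft1 lay between 73 and 119.8 CPM in all libraries and was the other enzyme above 0 in both depletion comparisons, with 0.20 ± 0.12 in occluded (edgeR adjusted p = 0.244) and 0.08 ± 0.11 in sham brains (edgeR adjusted p = 0.68), neither past the threshold.

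Of the remaining sterol enzymes none was called. Hsd17b7, a ketoreductase of the same complex as Nsdhl, had log2 fold changes of -0.34 ± 0.15 in occluded and -0.41 ± 0.13 in sham brains, and both pairs of groups were separate (edgeR adjusted p = 0.134 and 0.0614). Ebp, an isomerase of the sterol ring, ran from 8.78 to 21.1 CPM, and Dhcr7, the reductase that ends one branch, from 10.9 to 30.4 CPM. Tm7sf2, a sterol reductase, ran from 12.3 to 20.4 CPM and shares 12.1% of its exonic bases with Vps51 on the same strand. Vps51 was called higher with depletion in occluded (0.425 ± 0.127, edgeR adjusted p = 0.035) and sham brains (0.496 ± 0.115, edgeR adjusted p = 0.0193). Its part in the Tm7sf2 counts was not tested. The depletion changes of Ebp, Dhcr7 and Tm7sf2 lay between -0.50 and -0.10 on the log2 scale.

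**Figure D3:**
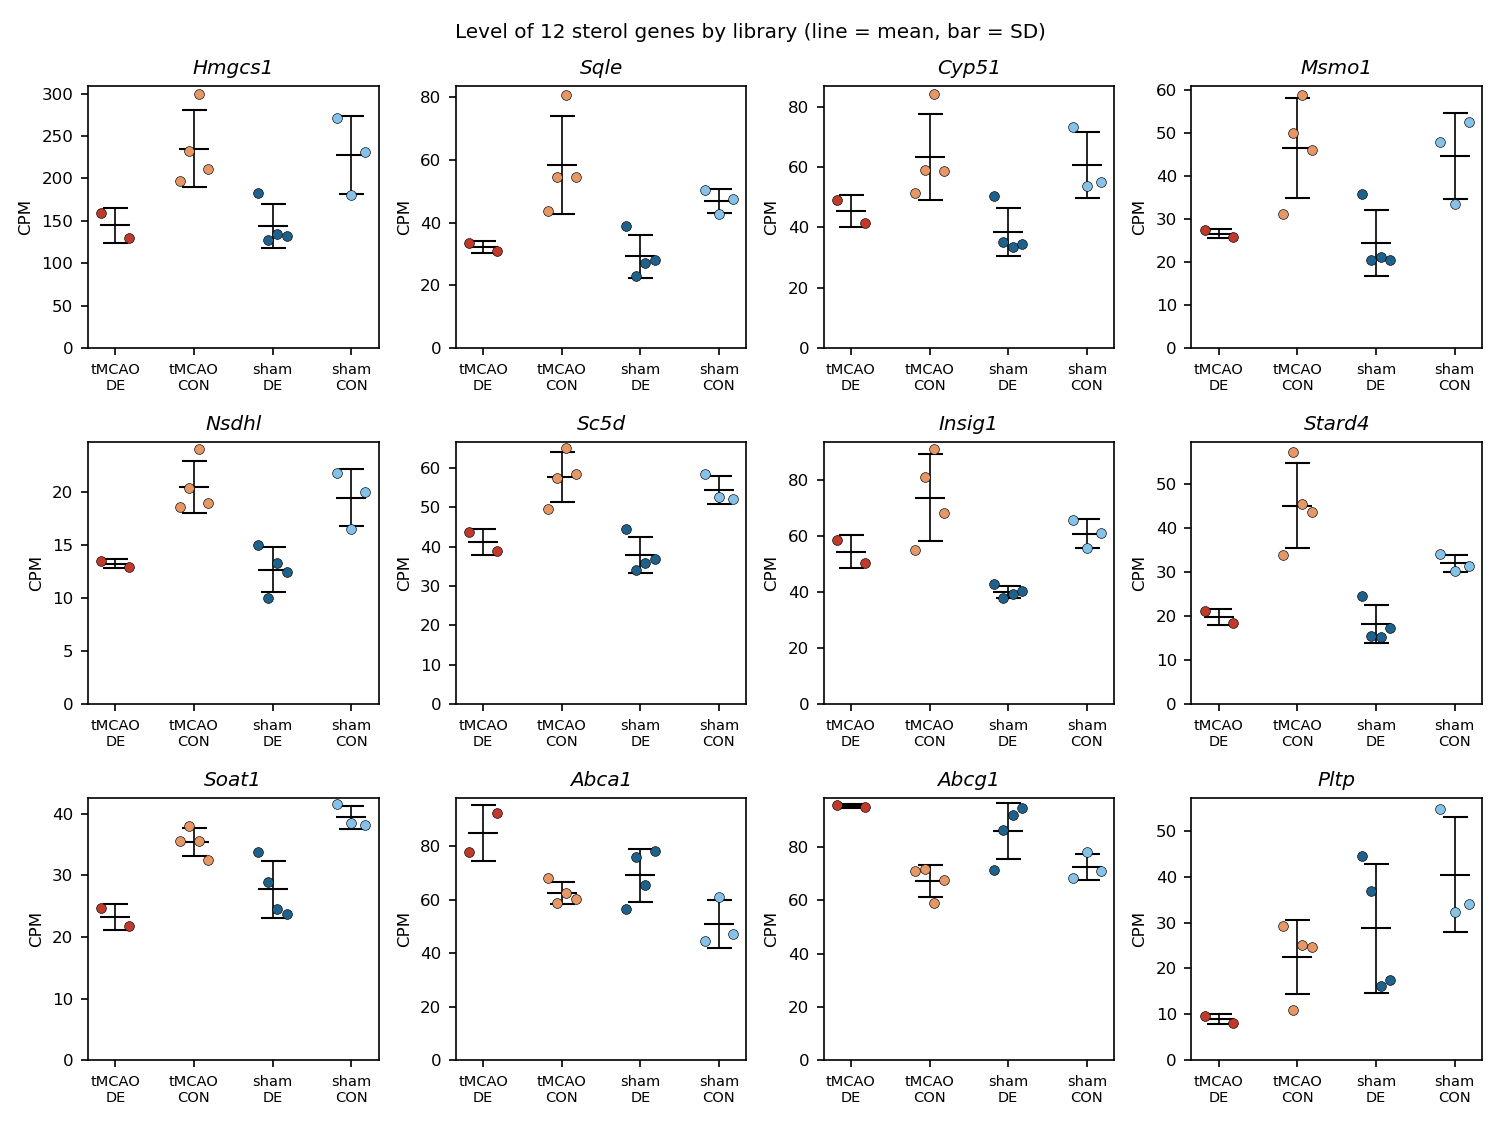
CPM of 12 sterol genes in each library, with lines for the group mean and bars for the SD, depleted groups left of their controls. Sqle, Nsdhl, Sc5d, Stard4 and Soat1 are lower in every depleted library than in the control libraries of the same surgery, and Abcg1 is higher in tMCAO_MG_DE at 95.9 and 95 CPM than in tMCAO_MG_CON.

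Among the regulators, Insig1, an anchor of SREBP and itself a target gene, was the 1 called in a depletion comparison. It had 58.4 and 50.2 CPM in tMCAO_MG_DE and 54.8, 80.8, 90.8 and 68 CPM in tMCAO_MG_CON, which overlapped. It had 42.9, 37.7, 39.2 and 40.2 CPM in sham_MG_DE against 65.7, 55.5 and 61 CPM in sham_MG_CON, which did not. The sham change of Insig1 was -0.60 ± 0.14 (edgeR adjusted p = 0.018), and the occluded change was -0.44 ± 0.16 (edgeR adjusted p = 0.07). The difference between these changes was 0.17 ± 0.21 (edgeR adjusted p = 0.84). Srebf2 ran from 152 to 177 CPM in tMCAO_MG_DE, 180.1 to 227 in tMCAO_MG_CON, 152 to 209 in sham_MG_DE and 195 to 259 in sham_MG_CON. Its log2 fold changes of -0.30 ± 0.14 in occluded (edgeR adjusted p = 0.149) and -0.39 ± 0.12 in sham brains (edgeR adjusted p = 0.0539) missed the threshold. Srebf1, whose product drives fatty acid genes, had log2 fold changes of 0.16 ± 0.13 in occluded and 0.11 ± 0.12 in sham brains. Scap had -0.07 ± 0.09 in occluded and -0.12 ± 0.08 in sham brains, and Insig2, the other anchor, had -0.11 ± 0.09 in occluded and -0.08 ± 0.08 in sham brains. None of these 3 was called in any comparison (edgeR). DESeq2 called 1 of the 5 regulators lower with depletion in occluded and 2 in sham brains.

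Stard4 and Soat1, which handle free sterol inside cells, fell with the enzymes. Stard4, a carrier of cholesterol between membranes and an SREBP2 target, had 21 and 18.5 CPM in tMCAO_MG_DE against 33.8, 57.3, 45.3 and 43.5 CPM in tMCAO_MG_CON, and 24.6, 15.4, 15.3 and 17.3 CPM in sham_MG_DE against 34.1, 30.3 and 31.3 CPM in sham_MG_CON. Neither pair overlapped. Stard4 had the smallest adjusted p of all members in occluded brains, with -1.19 ± 0.21 (edgeR adjusted p = 0.00398) and -0.81 ± 0.18 in sham brains (edgeR adjusted p = 0.0158). Soat1, which esterifies cholesterol for storage, had 24.8 and 21.8 CPM in tMCAO_MG_DE against 35.6, 38, 35.6 and 32.6 CPM in tMCAO_MG_CON, and 33.7, 28.9, 24.6 and 23.7 CPM in sham_MG_DE against 41.6, 38.6 and 38.2 CPM in sham_MG_CON. Its groups were separate too, with -0.61 ± 0.13 in occluded (edgeR adjusted p = 0.00934) and -0.51 ± 0.11 in sham brains (edgeR adjusted p = 0.0158).

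Of the efflux pumps, Abca1 was called higher with depletion in both settings and Abcg1 in occluded brains. Under 10 alternative ways of processing, the Abca1 call was kept in 5 in occluded and in 4 in sham brains. It also depended on single libraries, as given below. Abca1, which loads lipid onto apolipoproteins, ran from 77.7 to 92.4 CPM in tMCAO_MG_DE and from 58.8 to 68.3 CPM in tMCAO_MG_CON. In sham brains it ran from 56.5 to 78.4 CPM in sham_MG_DE and from 44.5 to 61 CPM in sham_MG_CON. Abca1 rose by 0.44 ± 0.14 in occluded (edgeR adjusted p = 0.046) and by 0.44 ± 0.13 in sham brains (edgeR adjusted p = 0.0439), where the groups overlapped. Abcg1, which exports sterol to lipoprotein particles, had 95.9 and 95 CPM in tMCAO_MG_DE against 71.2, 71.6, 58.9 and 67.6 CPM in tMCAO_MG_CON, and 71.4, 86.5, 92 and 94.8 CPM in sham_MG_DE against 68.5, 78.1 and 71.2 CPM in sham_MG_CON. It rose in occluded brains (0.50 ± 0.11, edgeR adjusted p = 0.0097), while the sham change of 0.25 ± 0.10 did not pass (edgeR adjusted p = 0.12).

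Pltp, a phospholipid transfer protein and LXR target, had 9.64 and 8.10 CPM in tMCAO_MG_DE and 29.2, 10.8, 25.1 and 24.7 CPM in tMCAO_MG_CON. Its sham values were 44.6, 36.8, 16.2 and 17.4 CPM in sham_MG_DE and 54.9, 32.4 and 34.1 CPM in sham_MG_CON. Both occluded depleted libraries were the lowest of all 13, and spread within the other groups was wide. The depletion changes of -1.34 ± 0.47 in occluded and -0.49 ± 0.37 in sham brains were not called (edgeR adjusted p = 0.0614 and 0.405). Of its exonic bases, 19.3% overlap Ctsa on the opposite strand. The LXR receptor genes Nr1h2, of LXR beta, and Nr1h3 were not called, and neither was Cyp46a1 in the depletion comparisons. Nr1h2 ran from 39.1 to 52.8 CPM, Nr1h3 from 1.47 to 3.35 CPM and Cyp46a1 from 174 to 251 CPM over all libraries.

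**Figure D4:**
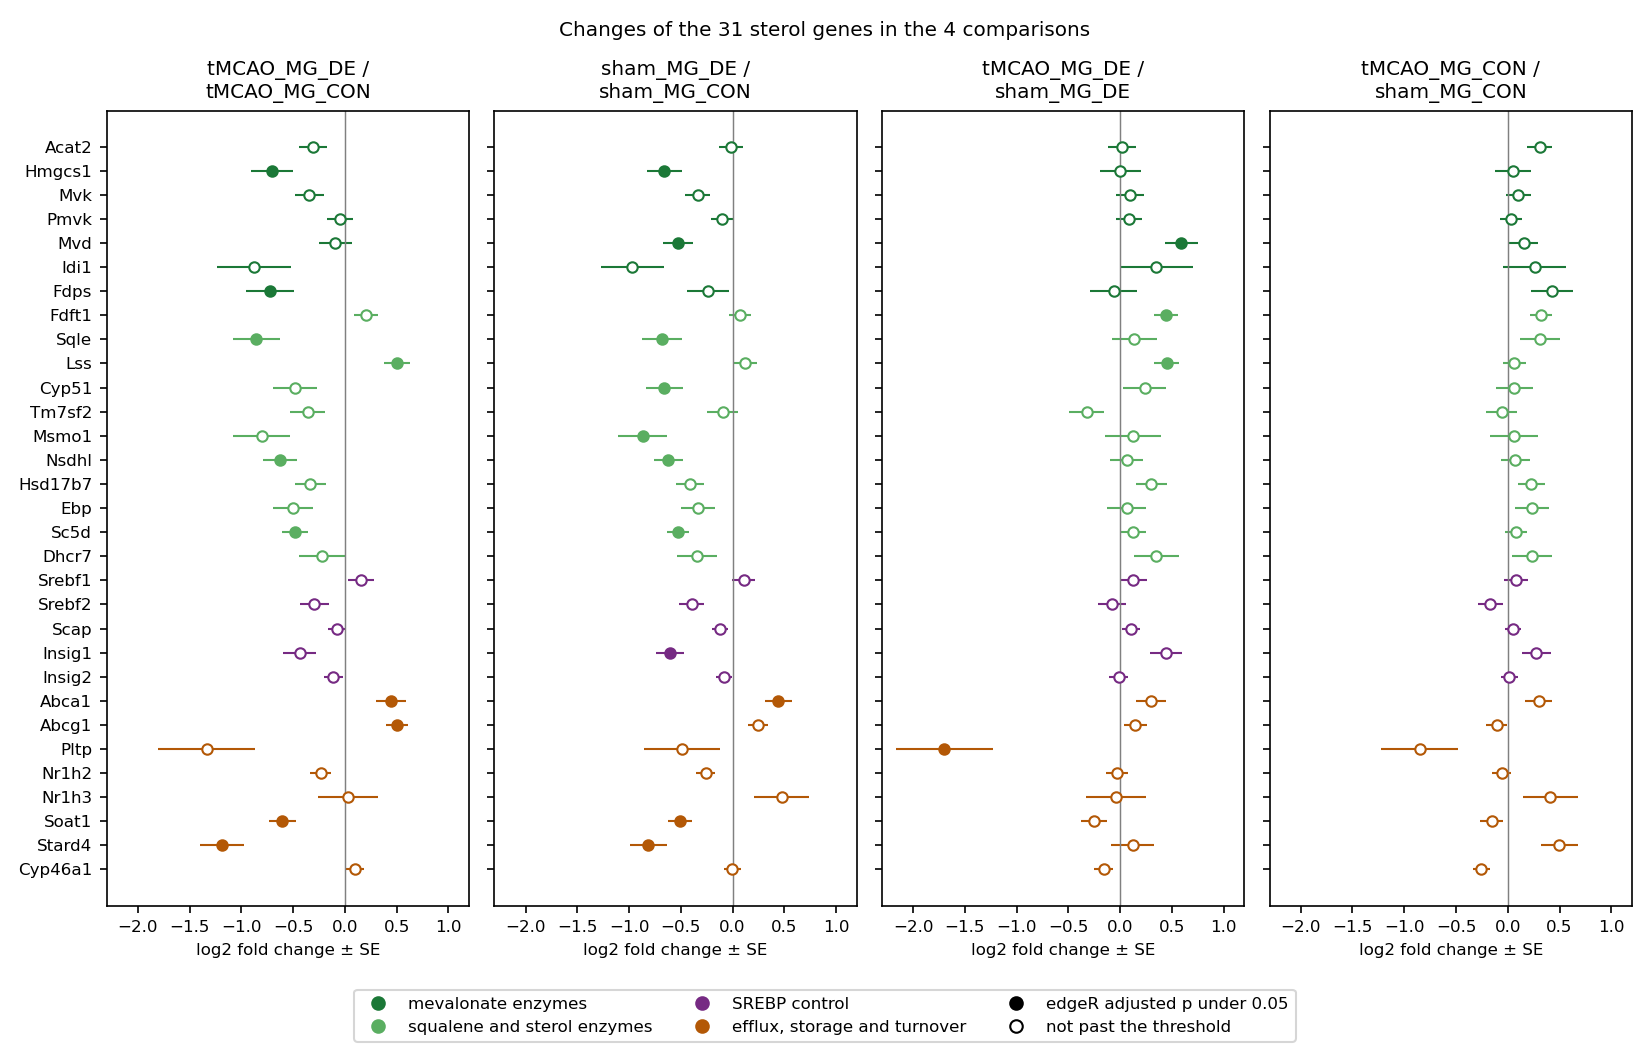
Log2 fold change ± SE of each of the 31 genes in the 4 comparisons, with filled points for an edgeR adjusted p under 0.05. In the depletion panels most enzymes lie left of 0 and Abca1 and Abcg1 right of it, and in tMCAO_MG_CON against sham_MG_CON no point is filled.

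The depletion comparisons share no library, so they can be set side by side. Of the 31 genes, 30 had the same sign in both, and 7 were called in both in the same direction, out of 10 in occluded and 11 in sham brains. Over the 16940 genes tested, 12484 had the same sign in both and 1027 were called in both in the same direction. The 7 members were Hmgcs1, Sqle, Nsdhl, Sc5d, Soat1 and Stard4, all lower, and Abca1, higher. Across the 31 genes, which are not independent replicates and were fitted with a shared spread, the log2 fold changes had r = 0.82 and rho = 0.834, beside r = 0.631 and rho = 0.591 over 16940 genes. In the test of the difference between the comparisons no member was called (edgeR), beside 0.0472% of all genes. An unadjusted p under 0.05 (edgeR) was reached by 1 member and by 1647 of the 16940 genes. DESeq2 also called none of the 31.

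**Figure D5:**
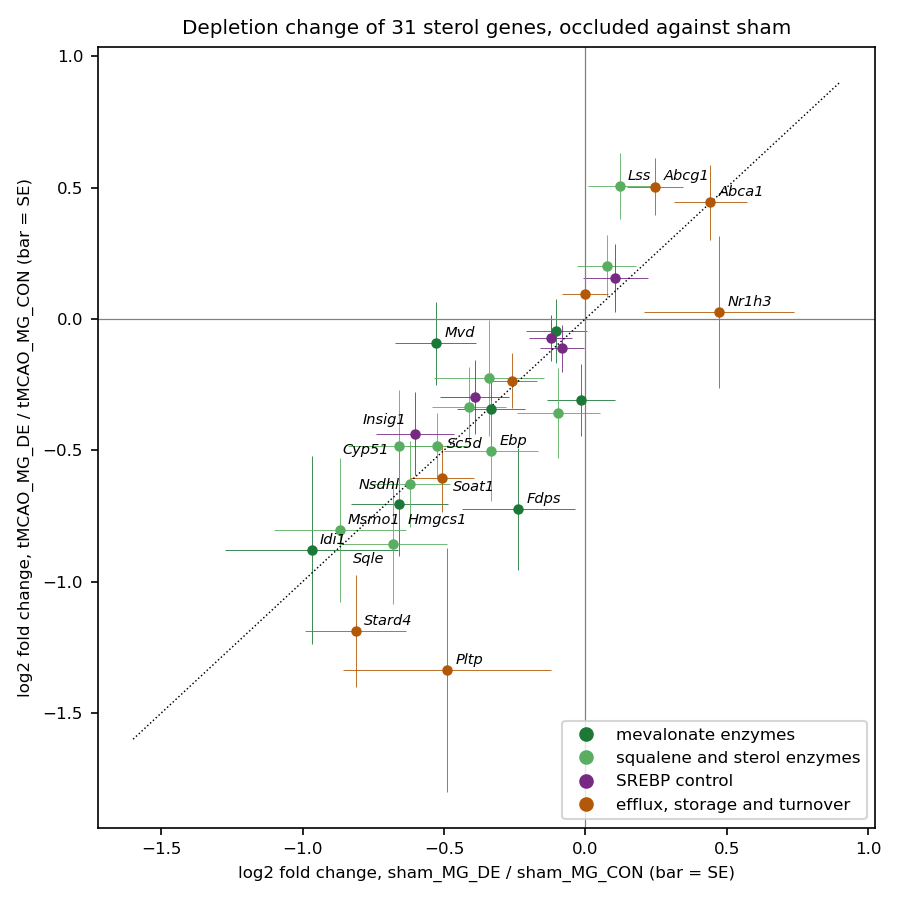
Log2 fold change of each of the 31 genes with depletion in occluded brains (vertical) against that in sham brains (horizontal), with bars for the SE and a dotted line of equality. Most enzymes lie in the lower left, with Stard4 at -1.19 and -0.81, and Abca1, Abcg1 and Lss in the upper right.

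These counts depended on single libraries. In occluded brains the 7 lower members became 2 without tMCAO_MG_DE replicate 1 and 0 without replicate 2, where the 1 library left in the group is assumed to vary like the others, and the 3 higher became 0 and 1. In sham brains the 10 lower members became 3, 5 and 5 without sham_MG_DE replicates 2, 3 and 4, and 0 and 2 without sham_MG_CON replicates 1 and 3. Without both libraries that stood apart by neutrophil genes, 0 members were lower in sham brains, where the calls over all genes fell to 219. In that fit 16 of the 18 enzymes lay below 0 with a median of -0.45, beside -0.003 for all genes. The enzymes vary together within libraries, so this count of signs is not a count of independent observations. The call of higher Abca1 in occluded brains remained in 6 of 13 fits that left out 1 library (edgeR adjusted p of 0.346 at most), and was lost in 5 of 10 other settings, those with no scaling, limma under either pseudocount, no filter and the replicate block. The call of higher Abca1 in sham brains remained in 2 of 13 fits that left out 1 library, those without sham_MG_DE replicate 1 and without sham_MG_CON replicate 2, that of lower Sqle in 4 and that of lower Fdps in occluded brains in 3. Sc5d and Soat1 lost their sham calls without sham_MG_CON replicate 1 alone (edgeR adjusted p = 0.0525 and 0.0633), and Nsdhl also without replicate 3 (0.0767 at most). In occluded brains Stard4 and Soat1 lost theirs without tMCAO_MG_DE replicate 2 alone (0.0672 and 0.118) and Lss without replicate 1 alone (0.208). Without tMCAO_MG_CON replicate 4, the library with the conflicting entry, 6 members were lower and 2 higher in occluded brains.

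Few members were called with occlusion. In tMCAO_MG_DE against sham_MG_DE, 3 of the 31 genes were higher, beside 6.59% of all genes tested, and 1 was lower, beside 5.84%, so both counts lie near the share of all genes. The 8 genes of reactive astrocytes summed to 1035 to 1050 CPM in tMCAO_MG_DE, 941 to 1440 CPM in tMCAO_MG_CON, 199.7 to 247 CPM in sham_MG_DE and 97.4 to 159 CPM in sham_MG_CON, and 7 of the 8 were higher with occlusion in each comparison. Of 7 genes of monocytes and foam macrophages, 4 were higher in tMCAO_MG_DE than in sham_MG_DE and 5 in tMCAO_MG_CON than in sham_MG_CON, and of 8 endothelial genes 5 and 3. The part of these cell types in the sterol gene levels was not tested. Mvd rose by 0.59 ± 0.16 (edgeR adjusted p = 0.0292), Fdft1 by 0.45 ± 0.12 (edgeR adjusted p = 0.0269) and Lss by 0.45 ± 0.12 (edgeR adjusted p = 0.0324), on the log2 scale and with separate groups. The same sham_MG_DE libraries enter the depletion call of Mvd, and the same tMCAO_MG_DE libraries that of Lss. For these genes the calls with occlusion and with depletion are therefore not separate observations. Fdft1 ran from 103 to 119.8 CPM in tMCAO_MG_DE and from 74 to 95 CPM in sham_MG_DE, and 18.3% of its exonic bases overlap Ctsb on the opposite strand, a gene not called here. Pltp fell to a mean of 8.87 CPM in tMCAO_MG_DE, against 28.8 CPM in sham_MG_DE (-1.70 ± 0.47, edgeR adjusted p = 0.0328). Without tMCAO_MG_DE replicate 1 or 2, the 3 higher members became 0 and 1 and the lower Pltp was lost. The higher members became 1 when sham_MG_DE replicate 1, 2 or 3 was left out, the Pltp call ended without replicate 1 or 2, and 0 were higher without both libraries set apart by neutrophil genes.

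In tMCAO_MG_CON against sham_MG_CON, edgeR called 0 of the 31 genes in either direction, beside 8.44% of all genes. An unadjusted p under 0.05 (edgeR) was reached by 6 of the 31 genes and by 4032 of the 16940 genes tested. DESeq2 called 1, lower Cyp46a1. Cyp46a1 had 178, 189.7, 174 and 214 CPM in tMCAO_MG_CON, below the 227, 226 and 224 CPM of sham_MG_CON, with a change of -0.26 ± 0.08 (edgeR adjusted p = 0.0681). Sums of 8 neuronal marker genes were 7199 to 7924 CPM in tMCAO_MG_CON and 8982 to 9364 CPM in sham_MG_CON, with 2 called lower and all 8 below 0, and their part in the Cyp46a1 level was not tested. Without replicate 4 of tMCAO_MG_CON, the library with the conflicting entry, Cyp46a1 was called (-0.32, edgeR adjusted p = 0.0238). Stard4 had 0.50 ± 0.18 (edgeR adjusted p = 0.107), Fdft1 0.32 ± 0.11 (edgeR adjusted p = 0.084) and Acat2 0.31 ± 0.12 (edgeR adjusted p = 0.139). Of the 18 enzymes 17 lay above 0, with a median of 0.13 beside 0.02 for all genes. The enzymes vary together within libraries, so these signs are not independent observations. Without tMCAO_MG_CON replicate 3, 13 lay above 0 and 5 below, with a median of 0.05. Without sham_MG_CON replicate 2 the counts were also 13 and 5, with a median of 0.11. Without tMCAO_MG_CON replicate 1 all 18 lay above 0, with a median of 0.20. Within tMCAO_MG_CON, replicate 3 had the highest level in 14 of the 18 enzymes and replicate 1 the lowest in 17. Their summed level was 1066 CPM in replicate 3 and 729 CPM in replicate 1. Without replicate 1, 3 members were called higher, Fdft1, Insig1 and Stard4. That replicate also had the most hemoglobin counts of the 13 libraries, 627, beside 518 in sham_MG_DE replicate 3 and 497 in sham_MG_CON replicate 2. Other libraries had 14 to 238, and the part of blood RNA in the enzyme levels was not tested. Without sham_MG_DE replicate 1, Stard4 was called higher (0.50, edgeR adjusted p = 0.0439) and Cyp46a1 lower (-0.26, edgeR adjusted p = 0.0402).

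Other genes of the pathway were read from 5 lists. Beside them, 9.26% of all genes were called lower and 9.36% higher with depletion in occluded brains, and 4.49% lower and 6.85% higher in sham brains. Of 14 fatty acid genes driven by SREBP1, 3 were lower and 1 higher with depletion in occluded brains, and 4 were lower and 1 higher in sham brains, so the higher counts lie near the share of all genes. Scd1, the stearoyl-CoA desaturase, averaged 159.9 CPM in sham_MG_DE and 264 CPM in sham_MG_CON (-0.72 ± 0.08, edgeR adjusted p = 0.000364). Acss2, which makes acetyl-CoA from acetate, fell by 0.47 ± 0.10 in occluded (edgeR adjusted p = 0.00782) and by 0.41 ± 0.08 in sham brains (edgeR adjusted p = 0.0118). Elovl6, a fatty acid elongase, fell in occluded brains (-0.72 ± 0.16, edgeR adjusted p = 0.0116). Acacb, the acetyl-CoA carboxylase of mitochondria, was the gene that rose, by 0.76 ± 0.22 in occluded (edgeR adjusted p = 0.0294) and 0.97 ± 0.20 in sham brains (edgeR adjusted p = 0.0122). Neither occlusion comparison called any of the 14 by edgeR, while DESeq2 called 1 lower in each. At an unadjusted p under 0.05 (edgeR) there were 1 after depletion and 2 with microglia. Of the 16940 genes tested, 4757 and 4032 were under it.

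Of 18 genes of lipoprotein uptake and endosomal sterol transport, 3 were lower and 1 higher with depletion in occluded brains, and 2 lower and 1 higher in sham brains. The higher counts do not exceed the share of all genes. Npc2, which carries cholesterol out of lysosomes, fell in both (-0.34 ± 0.09 in occluded, edgeR adjusted p = 0.0212, and -0.47 ± 0.08 in sham brains, edgeR adjusted p = 0.00542). Vldlr, a lipoprotein receptor, fell in occluded brains (-0.31 ± 0.08, edgeR adjusted p = 0.0182). With occlusion, 3 were higher and 3 lower after depletion, beside 6.59% and 5.84% of all genes called higher and lower, and 2 were higher and 2 lower with microglia, beside 5.14% and 3.31%. Apod, a lipocalin of glia, rose by 1.25 ± 0.29 after depletion (edgeR adjusted p = 0.0154) and by 1.31 ± 0.27 with microglia (edgeR adjusted p = 0.0121). Osbpl1a, an oxysterol-binding protein, fell by 0.42 ± 0.07 after depletion (edgeR adjusted p = 0.00402) and by 0.38 ± 0.06 with microglia (edgeR adjusted p = 0.0034).

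Of 13 LXR targets, oxysterol enzymes and nuclear receptors other than LXR, 12 were tested. Ch25h, which makes 25-hydroxycholesterol, rose most with occlusion, to a mean of 9.63 CPM in tMCAO_MG_DE, against 1.19 CPM in sham_MG_DE (3.01 ± 0.52, edgeR adjusted p = 0.00401). It averaged 8.15 CPM in tMCAO_MG_CON and 0.640 CPM in sham_MG_CON (3.69 ± 0.58, edgeR adjusted p = 0.00251). It was the 1 gene of the list called with microglia present, beside 5.14% of all genes called higher and 3.31% lower. After depletion 1 was higher and 2 lower with occlusion, beside 6.59% and 5.84% of all genes. The higher counts lie near the share of all genes. With depletion in occluded brains, 2 were higher, Abca5 and Rxrb, the latter 1 of the nuclear receptors, and 1 was lower, Abca8a. In sham brains 1 was lower with depletion, Mylip, whose product marks lipoprotein receptors for degradation (-0.31 ± 0.08, edgeR adjusted p = 0.0304). Of 14 genes of SREBP activation and sterol-regulated degradation, edgeR called 0 with depletion in either setting, with medians of -0.03 in occluded and -0.04 in sham brains. At an unadjusted p under 0.05 (edgeR) there were 3 in occluded and 2 in sham brains, beside 5841 and 4902 of all 16940 genes. DESeq2 called 1 higher and 1 lower in occluded brains and 0 in sham brains. Of 11 genes of the isoprenoid branch, Coq2, of ubiquinone synthesis, was lower with depletion in occluded brains (-0.33 ± 0.07, edgeR adjusted p = 0.0073) and with occlusion after depletion (-0.37 ± 0.07, edgeR adjusted p = 0.0053). Fnta, a farnesyltransferase subunit, was higher with depletion in sham brains (0.31 ± 0.08, edgeR adjusted p = 0.0274).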

How the data were processed

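Brain RNA of 13 mice was measured by paired-end sequencing. The authors deposited 4 tables, 1 per group, with whole-number counts per gene and FPKM values, which scale counts to transcript length and depth. The submitters' processing notes name Cufflinks 2.1.1, Cuffdiff and build mm10. No aligner, annotation, counter or strand setting is given in the sources used here. Entries of 29 repeated symbols were added up, and 24 gene names that had become dates were dropped.

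Counts were scaled by TMM factors, filtered with filterByExpr (smallest group 2), and fitted as 1 model of 4 group means over 13 libraries with edgeR 4.0.16 (quasi-likelihood test, two-sided) in R 4.3.3. Benjamini-Hochberg adjustment ran over 16940 genes at a threshold of 0.05. Standard errors were approximated from the F statistic, as the size of the log2 change over the root of F. CPM are counts over the TMM-adjusted library total. Alternatives used RLE factors, no scaling, DESeq2 1.42.0, limma 3.58.1 on log2 FPKM, other filters, fewer groups, a replicate block, and fewer libraries. Exonic overlaps and shared 50-base stretches were computed from the GENCODE M21 annotation of GRCm38, the build called mm10.

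The rule for named genes gave values per library for at most 14 called members by the size of their change, ranges for the others, and at most 3 genes per pathway list and comparison. Results of occlusion for the list on SREBP activation are not reported here. Members, lists and rule were chosen with earlier results of these data known. Total counts, 16239763 to 22080367 per library, set the counting error, and the common biological coefficient of variation was 15.2%.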

Additional observations from a re-analysis of the deposited data

Results flagged for a closer look

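In 7 of 62 groups of 4 libraries, 2 per member, the highest or lowest library was separated from the others by a gap above Dixon's limit. For a single group the limit is passed by chance about 1 time in 20. The 62 groups reuse the same libraries for genes that vary together, so that rate cannot be set against the 7. Replicate 1 of sham_MG_DE was high in 3 sterol enzymes, with 183 CPM for Hmgcs1 (others 128 to 134), 50.4 CPM for Cyp51 (others 33.6 to 35.1) and 35.8 CPM for Msmo1 (others 20.4 to 21.1). Replicate 3 of sham_MG_DE was high in Acat2 at 34.1 CPM (others 26 to 26.4), and replicate 4 was low in Ebp at 8.78 CPM (others 11.9 to 12.5). In tMCAO_MG_CON, replicate 3 was high in Srebf1 at 41.9 CPM (others 38.8 to 39), and replicate 1 was low in Nr1h2 at 42.7 CPM (others 50.1 to 51.5).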

How the results depend on the processing

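No member that was called changed direction under any alternative run. With occlusion and microglia present, the members called higher, 0 in the fit reported, became 2 with no scaling beyond the library total and 1 with limma on log2 FPKM under either pseudocount, 1 or 0.1, and those called lower became 1 with DESeq2. With occlusion after depletion, the 3 higher became 0 without both libraries set apart by neutrophil genes, and the 1 lower became 0 with limma and a pseudocount of 1 and in a fit of the groups compared alone, where Fdft1 and Lss also lost their calls and Mvd kept its call. Lss was also lost with limma under either pseudocount and under the replicate block. With depletion in sham brains, the 1 higher became 0 with limma under either pseudocount, without a filter, in the groups compared alone, under the replicate block and without both libraries, and the 10 lower became 3 in the groups compared alone, 3 under the replicate block and 0 without both libraries. With depletion in occluded brains, the 3 higher became 1 under the replicate block. DESeq2 called 4 squalene and sterol enzymes lower with depletion in occluded and 6 in sham brains, and 3 efflux, storage and turnover genes in occluded brains. Over all genes it called 1879 lower in occluded and 1043 in sham brains, against 1569 and 760 by edgeR. The cause of these moves was not tested.

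Same-numbered libraries did not deviate together (16 pairs, r = -0.064 to 0.106), so the replicate block pairs libraries that share only a number. Leaving out 1 library at a time, the members called ranged from 0 to 3 higher and 0 to 1 lower with occlusion and microglia present, and from 0 to 4 higher and 0 to 1 lower with occlusion after depletion. They ranged from 0 to 2 higher and 0 to 14 lower with depletion in sham brains, and from 0 to 3 higher and 0 to 10 lower in occluded brains. The difference between the depletion changes gave 0 to 0. Over all genes, the share of higher calls with occlusion and microglia present was 60.8%, and 84.2% with no scaling, which moved the median of all genes to 0.11, and 84.7% and 85.3% with limma. With occlusion after depletion it was 53.0%, and 65.8% and 63.1% with limma. With depletion in occluded brains it was 50.3%, and 40.2% with limma and a pseudocount of 0.1. With depletion in sham brains it was 60.4%, and 37.4% (82 higher, 137 lower) without both libraries set apart. Nr1h3 was read at only 1.47 to 3.35 CPM.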
